A study of Homo sapiens with 6 samples.

Results

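Ribosome biogenesis factors are the proteins that make ribosomal RNA and ribosomal proteins into subunits, and 57 of their genes are described here in the human monocytic leukaemia line THP-1 after mebendazole. The 57 were taken by gene symbol from a written list, all 57 were among the 23710 symbols of the deposited count table, and all 57 passed the filter on low counts that left 13591 genes for testing. RNA was sequenced from 3 libraries of cells given 10 uM mebendazole, an anthelmintic benzimidazole that binds tubulin, and from 3 libraries of cells given the vehicle DMSO, each after 6 h. Cells of both groups were grown in RPMI medium with serum, and each treated library has a DMSO library with the same pair number. Whether pairs were separate cultures is not in the labels, and p-values therefore cover only variation among these libraries, possibly technical. In bulk RNA of this kind, fewer cells of a type and less RNA per cell cannot be told apart, and every level is relative to the other RNA of its library.

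Ribosomes are built mainly in the nucleolus, where RNA polymerase I transcribes one long precursor of the rRNAs. Small nucleolar ribonucleoproteins (snoRNPs) modify this precursor, the small subunit processome folds and cuts its leading part, and a separate set of factors assembles the large subunit around the rest, before both subunits are exported and finished in the cytoplasm. Growing and leukaemic cells use these factors heavily, and many of their genes are known targets of the transcription factor MYC. The members were sorted by known role into the snoRNP core (4 genes), nucleolar proteins and regulators (7), small subunit assembly (25) and large subunit assembly (21).

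Library totals ranged from 13420558 to 15727667 counts. Members had between 642 and 92408 reads over the 6 libraries. Monocyte markers were present in both groups, with a summed level of 1096 to 1146 CPM (reads relative to the scaled library total) with mebendazole and 1447 to 1519 CPM with DMSO. Of those 7 markers 6 were lower with mebendazole and 1, CD68, was higher (but lower with library totals, -0.14), and their part in the results on ribosome biogenesis was not tested. Over all 6 libraries together the T cell and B cell markers CD3D, CD3E, CD3G and MS4A1 had 5, 1, 2 and 3 reads, and CD79A had 24 reads with mebendazole and 22 with DMSO.

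Promoter windows are shown first, because a short sequence recurs near the start sites of the members. RefSeq gives windows of 300 bases, 250 before and 50 after the gene's start (build GRCh38.p14), for 47 of the 57 members by symbol. The E-box CACGTG, a palindrome bound by MYC with its partner MAX and by related factors, was found in 17 of the 47 windows (36.2%), in 10.1% of 9902 windows of tested genes and in 7.43% of all 27305 windows. The motifs, and the split by distance from the start, were chosen with the members' values known. In 15 of the 17 (88.2%) a match began within 50 bases before the start or lay after it, against 393 of 996 windows with an E-box among tested genes (39.5%). The sites of the 8 E-box members with the lowest log2 fold changes that have 10 bases on each side within the window are printed on the gene's strand, with the E-box in capitals.
RRP9: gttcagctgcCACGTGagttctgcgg
UTP20: tttttccgtcCACGTGacccactcag
EBNA1BP2: tattgttggcCACGTGggatcgaaga
MRTO4: tcttccgccgCACGTGgattcagcgc
NOL6: catttccgccCACGTGggaagctatg
NOC3L: gggacttcggCACGTGtgtcattccc
IMP4: ggtcctaagtCACGTGtgacattctg
WDR43: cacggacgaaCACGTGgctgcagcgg
The RRP9 site lies at chr3:51941894-51941919, minus strand, and its E-box begins 5 bases before the start. The site of UTP20 lies at chr12:101280085-101280110, plus strand, and its E-box begins 10 bases before the start. In MRTO4, NOL6, NOC3L and WDR43 the E-box begins at base 15, 14, 20 and 4 after the start, and in EBNA1BP2 and IMP4 its first match lies 237 and 203 bases before it. The UTP20 window before the start (chr12:101279855-101280104, plus strand) is shown whole, since UTP20 had the second lowest log2 fold change of the small subunit genes and its E-box sits beside the start.
UTP20: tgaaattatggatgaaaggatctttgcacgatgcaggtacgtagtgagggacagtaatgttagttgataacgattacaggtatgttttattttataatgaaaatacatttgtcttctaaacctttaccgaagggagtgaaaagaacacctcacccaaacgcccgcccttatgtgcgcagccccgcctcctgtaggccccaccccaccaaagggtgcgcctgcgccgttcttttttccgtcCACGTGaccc

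The comparison of mebendazole with DMSO asked how far the RNA of each factor changed. Levels are CPM scaled by TMM factors, and calls were made where the p-value, adjusted by Benjamini-Hochberg over all genes tested, was under 0.05 in edgeR's quasi-likelihood test with the pair as a term. The SE beside a log2 fold change is its size divided by the square root of the F statistic, and 95% intervals rest on that SE. Of the 57 members, 50 were lower, 1 was higher and 6 were not called, against 41.7% of all 13591 genes tested lower and 40.6% higher. Members were thus lower in 87.7%, with a median log2 fold change of -0.73, against -0.03 over all genes tested. Falls of at least 2-fold were found in 12 members (21.1%), against 14.8% of all genes, a share not far above that background. No member rose by 2-fold, against 15.5% of all genes. The lower quartile of all genes was -0.62, and 35 of the 57 members (61.4%) lay below it. In a test against a 1.5-fold change, 34 members were called lower, against 21.2% of all genes.

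In all 50 lower members the 3 mebendazole libraries lay below the 3 DMSO libraries, as they did in 41.9% of all genes tested. The summed level of the 57 genes was 4397, 4312 and 4383 CPM with mebendazole, against 7125, 7103 and 7255 CPM with DMSO. They took 0.401% ± 0.000565 of the reads with mebendazole and 0.779% ± 0.00707 with DMSO (SD, n = 3 each). The median log2 ratio of the members within a pair was -0.71, -0.76 and -0.76 in pairs 1, 2 and 3. Across the 57 genes the log2 fold change had a Spearman correlation of -0.09 with the level in DMSO and 0.15 with exon length, a description over genes of the same 6 libraries in which the DMSO level enters both measures of the first pair.

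All 17 members with an E-box were lower with mebendazole (adjusted p under 0.05), with log2 fold changes of -1.84 to -0.30 and a median of -0.83. Of all genes tested 41.7% were lower, and of all 57 members 87.7%. How many of the 996 tested genes with an E-box were lower was not counted, so 17 of 17 has no matched background. The 30 windows without one included all of the members with a window that were not called, and 25 of the 30 were lower, with a median of -0.71. Among the other motifs searched on both strands, the ETS-type CCGGAAG was in 17 of 47 member windows (36.2%) and in 18.7% of tested genes. Of the members with a window that were not called, DDX47, GTPBP4, NOL9 and UTP3 had the ETS letters and RRP1 did not. The GC box GGGCGG was in 70.2% and 69.1%, CCAAT in 36.2% and 36.3%, and TATAAA in 2.13% and 5.7%, and no motif searched contains another. A match of letters is a description of the window and no evidence of binding. MYC itself had 114, 117 and 113 CPM with mebendazole, against 207, 196 and 195 CPM with DMSO (log2 fold change -0.80, SE 0.04, adjusted p = 8.9e-29, edgeR), with no overlap between the groups. MAX, its partner, had 85.5, 81.2 and 76.2 CPM with mebendazole, against 71.2, 70.03 and 75.2 CPM with DMSO and was called higher (log2 fold change 0.17, SE 0.05, adjusted p = 0.0015, edgeR), but stood at -0.08 with library totals.

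**Figure D1:**
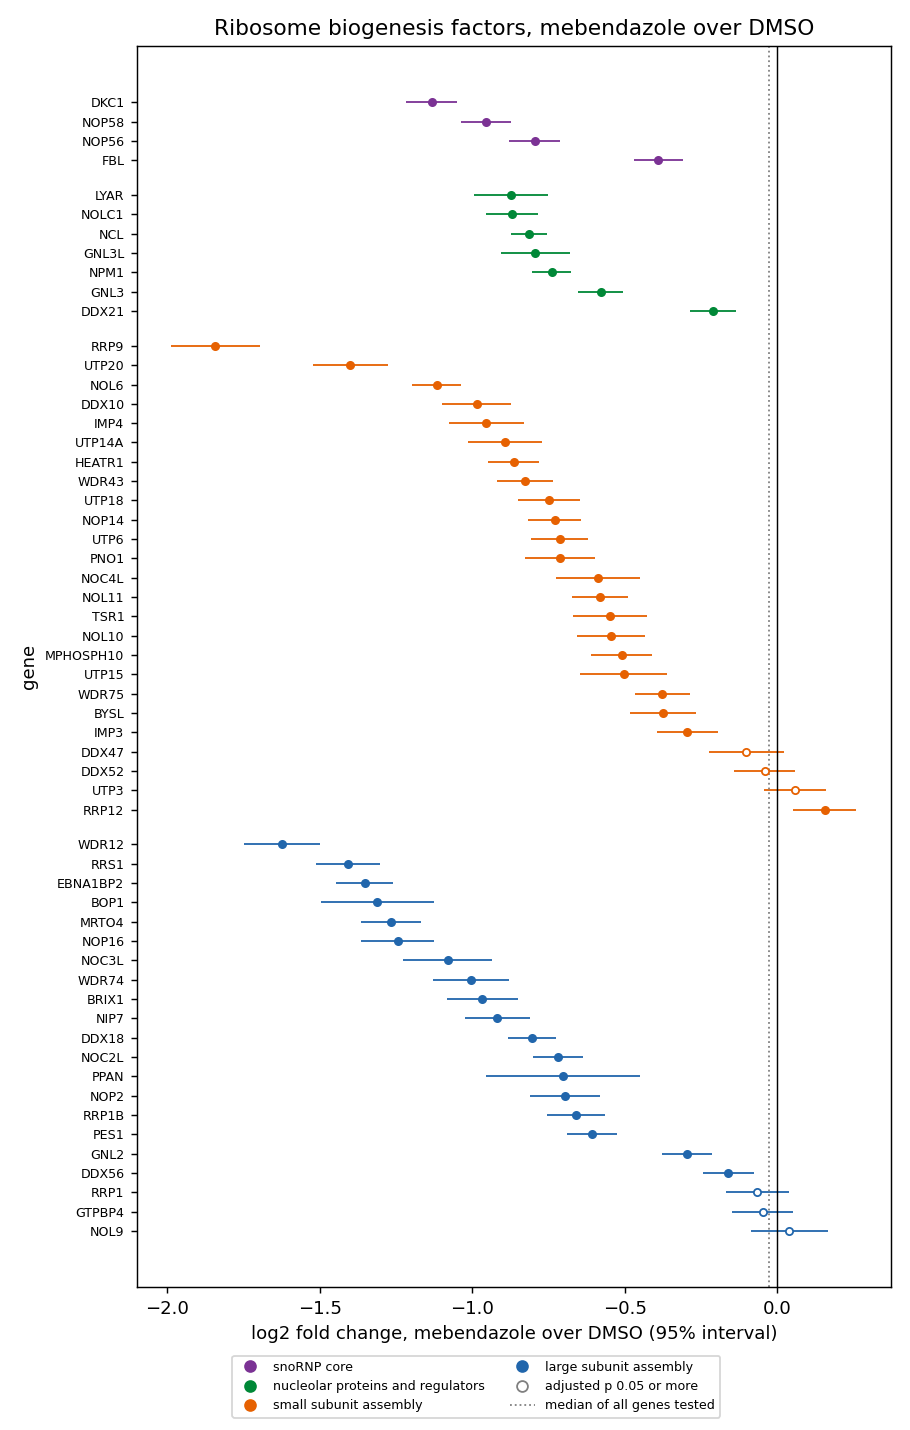
Log2 fold change of each of the 57 members (mebendazole over DMSO, x axis) with its 95% interval, by role group and ordered within it. 50 filled points lie left of 0 and 1 filled point (RRP12) right of it, and the 6 open points were not called; the dotted line marks the median of all genes tested, -0.03.

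The 4 snoRNP core genes all fell. DKC1, the pseudouridine synthase of box H/ACA snoRNPs, had 82.5, 82.1 and 90.03 CPM with mebendazole, against 192, 183 and 183 CPM with DMSO (log2 fold change -1.13, SE 0.04, adjusted p = 3.1e-35, edgeR). NOP58, a core protein of box C/D snoRNPs, had 106, 99.2 and 99.3 CPM with mebendazole, against 188, 198 and 203 CPM with DMSO (log2 fold change -0.95, SE 0.04, adjusted p = 7.1e-32, edgeR). DKC1 fell to 45.6% and NOP58 to 51.6% of the DMSO level, with no overlap between the groups in either gene. NOP56, the partner of NOP58 in the box C/D core, had 89.98, 93.9 and 86.9 CPM with mebendazole, against 154, 154 and 161 CPM with DMSO (log2 fold change -0.79, SE 0.04, adjusted p = 7.7e-27, edgeR). FBL, the methyltransferase of the same particle, had 116, 110.3 and 113 CPM with mebendazole, against 146, 141 and 157 CPM with DMSO and stayed at 76.4% of its DMSO level (log2 fold change -0.39, SE 0.04, adjusted p = 1.9e-13, edgeR). The RNAs for proteins of 1 particle thus had unequal values, and the intervals of FBL (-0.47 to -0.31) and NOP58 (-1.04 to -0.87) do not meet, though their difference was not tested. The summed level of the 4 genes was 389 ± 4.15 CPM with mebendazole and 687 ± 15.03 CPM with DMSO (SD, n = 3 each).

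Other snoRNP proteins and the factors that assemble snoRNPs were lower in 11 of 13 and higher in 2, with a median of -0.63. NHP2, the partner of DKC1 in the H/ACA particle, averaged 30.5 ± 1.71 CPM with mebendazole and 79.9 ± 4.93 CPM with DMSO (SD, n = 3 each, log2 fold change -1.39, SE 0.05, adjusted p = 9.7e-34, edgeR). RUVBL2, an AAA-type ATPase of the assembly complex, averaged 47.7 ± 0.523 CPM with mebendazole and 123 ± 3.200 CPM with DMSO (SD, n = 3 each, log2 fold change -1.37, SE 0.05, adjusted p = 4.2e-37, edgeR). ZNHIT3 had the highest log2 fold change of the list, 0.20, and stood at -0.04 with library totals.

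All 7 nucleolar proteins and regulators fell, none by 2-fold. NCL (nucleolin), an RNA-binding protein of pre-rRNA and the member with the highest level per kilobase, had 757, 742 and 767 CPM with mebendazole, against 1325, 1333 and 1321 CPM with DMSO (log2 fold change -0.81, SE 0.03, adjusted p = 1.3e-35, edgeR). NPM1 (nucleophosmin), a nucleolar chaperone with many pseudogenes whose reads may be shared with it, had 458, 439 and 455 CPM with mebendazole, against 716, 764 and 776 CPM with DMSO (log2 fold change -0.74, SE 0.03, adjusted p = 2.0e-31, edgeR). The remaining 5 were at lower levels per kilobase. LYAR, a nucleolar zinc finger protein, had 29.9, 30.6 and 28.1 CPM with mebendazole, against 50.9, 53.7 and 57.7 CPM with DMSO (log2 fold change -0.87, SE 0.06, adjusted p = 4.7e-21, edgeR). NOLC1, a snoRNP chaperone, had 74.8, 77.6 and 79.7 CPM with mebendazole, against 144, 138 and 141 CPM with DMSO (log2 fold change -0.87, SE 0.04, adjusted p = 2.9e-28, edgeR). Groups did not overlap in either gene, and the intervals of LYAR, NOLC1 and NCL overlap.

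The related GTP-binding proteins GNL3 (nucleostemin) and GNL3L both fell. GNL3 had 141, 145 and 149 CPM with mebendazole, against 211, 212 and 228 CPM with DMSO (log2 fold change -0.58, SE 0.04, adjusted p = 1.3e-22, edgeR). GNL3L had 37.5, 34.5 and 39.6 CPM with mebendazole, against 69.4, 63.3 and 60.7 CPM with DMSO (log2 fold change -0.79, SE 0.06, adjusted p = 1.8e-20, edgeR). DDX21, an RNA helicase of rRNA transcription and processing, had 152, 148 and 149.8 CPM with mebendazole, against 171, 177 and 171 CPM with DMSO, and changed least of the nucleolar group (log2 fold change -0.21, SE 0.04, adjusted p = 1.2e-06, edgeR). Summed over the 7 genes the level was 1645 ± 26.4 CPM with mebendazole and 2728 ± 35.5 CPM with DMSO (SD, n = 3 each).

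**Figure D2:**
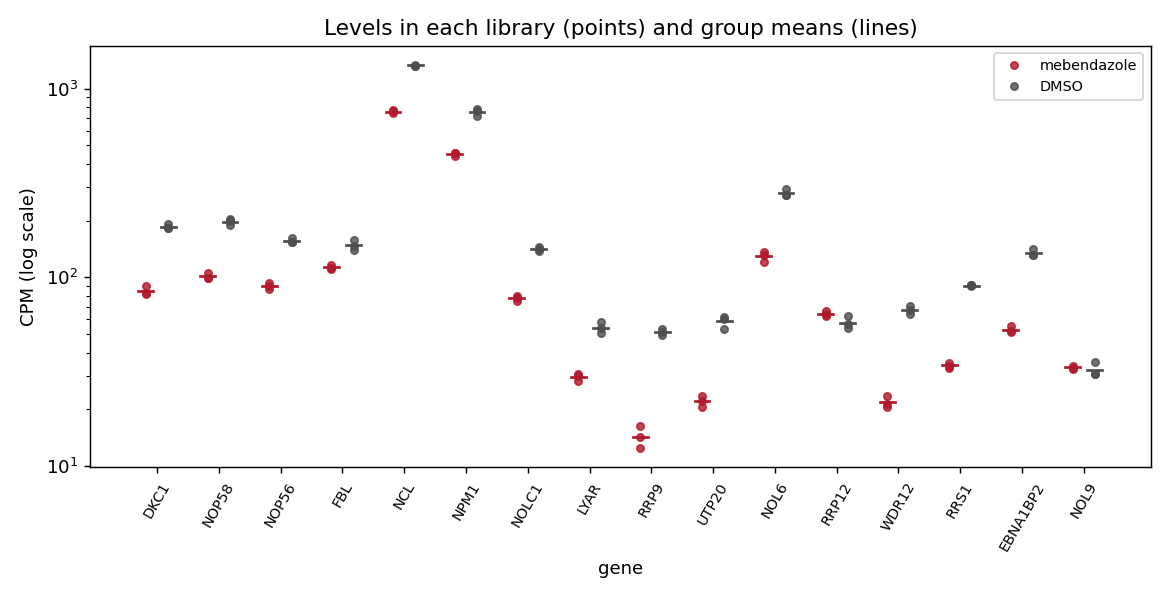
CPM on a log axis of 16 members in each library (points) with the group mean (line), mebendazole left and DMSO right for each gene. RRP9, at 12.5 to 16.3 CPM with mebendazole and 49.4 to 53.2 CPM with DMSO, is the farthest apart, and RRP12 and NOL9 are the genes where the groups lie closest.

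Of the 25 small subunit assembly genes 21 fell, 1 was higher and 3 were not called, with a median log2 fold change of -0.59. RRP9, a WD-repeat protein of the U3 snoRNP, had 12.5, 16.3 and 14.2 CPM with mebendazole, against 53.2, 49.4 and 51.1 CPM with DMSO, and fell to 27.9% of its DMSO level (log2 fold change -1.84, SE 0.07, adjusted p = 1.0e-33, edgeR). UTP20, a very large scaffold protein of the processome, had 23.7, 22.2 and 20.5 CPM with mebendazole, against 61.6, 60.2 and 53.4 CPM with DMSO (log2 fold change -1.40, SE 0.06, adjusted p = 3.2e-31, edgeR). These were the 2 lowest log2 fold changes of the group. NOL6, a processome protein known in yeast as Utp22, had 120.1, 132 and 136 CPM with mebendazole, against 294, 275 and 273 CPM with DMSO (log2 fold change -1.12, SE 0.04, adjusted p = 3.7e-36, edgeR). DDX10, an RNA helicase, had 31.2, 32.4 and 34.8 CPM with mebendazole, against 67.1, 62.2 and 65.2 CPM with DMSO (log2 fold change -0.98, SE 0.06, adjusted p = 5.1e-25, edgeR). The fall in NOL6 passed 2-fold and that in DDX10 came just short of it.

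Within the complex of IMP3, IMP4 and MPHOSPH10, which binds the U3 snoRNA, IMP4 fell most. Its log2 fold change was -0.95, against -0.51 for MPHOSPH10 and -0.29 for IMP3, and all 3 were called. Processome proteins at an intermediate fall were UTP14A (-0.89), HEATR1 (-0.86), WDR43 (-0.83), UTP18 (-0.75), UTP6 (-0.71), NOL11 (-0.58), NOL10 (-0.54) and UTP15 (-0.503). WDR75, which like WDR43, NOL11, HEATR1 and UTP15 belongs to the early-binding UTP-A complex, stood nearest to 0 of these, at -0.38. NOP14 (-0.73) and NOC4L (-0.59), which bind each other, were both called. Of the later small subunit factors PNO1 was at -0.71, TSR1, a GTPase-like protein, at -0.55, and BYSL, known in yeast as Enp1, at -0.37.

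RRP12, a HEAT-repeat protein of subunit maturation and export, was the 1 member called higher. It had 64.1, 66.3 and 62.6 CPM with mebendazole, against 62.2, 53.97 and 56.8 CPM with DMSO (log2 fold change 0.16, SE 0.05, adjusted p = 0.0047, edgeR), with no overlap between the groups. The call was lost without pair 2 (log2 fold change 0.11, adjusted p = 0.1, edgeR), and with library totals in place of TMM factors the direction turned (-0.09, adjusted p = 0.11). UTP3, known in yeast as Sas10, had 69.6, 62.7 and 60.5 CPM with mebendazole, against 60.9, 61.8 and 62.4 CPM with DMSO, a log2 fold change of 0.06 (95% interval -0.04 to 0.16, adjusted p = 0.28, edgeR). DDX47, an RNA helicase, had 38.8, 37.3 and 33.1 CPM with mebendazole, against 40.3, 36.6 and 40.1 CPM with DMSO, a log2 fold change of -0.10 (95% interval -0.22 to 0.02, adjusted p = 0.12, edgeR). DDX52, another helicase, had 58.95, 65.9 and 63.2 CPM with mebendazole, against 62.3, 63.7 and 67.3 CPM with DMSO, a log2 fold change of -0.04 (95% interval -0.14 to 0.06, adjusted p = 0.45, edgeR). In these 3 genes the groups overlapped, and with library totals UTP3 was called lower at -0.19, DDX47 at -0.34 and DDX52 at -0.29. Summed over the 25 genes the level was 1274 ± 7.47 CPM with mebendazole and 2002 ± 26.4 CPM with DMSO (SD, n = 3 each).

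Large subunit assembly genes were lower in 18 of 21, with 3 not called, none higher and a median log2 fold change of -0.80. Of the 12 members with falls of at least 2-fold, 8 were in this group, 38.1% of its 21 genes, against 14.8% of all genes tested. WDR12 had 21.3, 20.5 and 23.5 CPM with mebendazole, against 63.8, 70.6 and 66.9 CPM with DMSO (log2 fold change -1.62, SE 0.06, adjusted p = 1.1e-34, edgeR). BOP1, which with WDR12 and PES1 forms the PeBoW complex of large subunit maturation, had 9.28, 8.13 and 8.03 CPM with mebendazole, against 22.9, 20.1 and 20.1 CPM with DMSO (log2 fold change -1.31, SE 0.09, adjusted p = 1.8e-20, edgeR). PES1, the third subunit, had 95.02, 96.2 and 97.1 CPM with mebendazole, against 148, 143 and 148 CPM with DMSO (log2 fold change -0.61, SE 0.04, adjusted p = 1.9e-21, edgeR). Levels of the 3 subunits fell to 32.5%, 40.3% and 65.7% of DMSO, and the interval of PES1 (-0.69 to -0.52) does not meet those of WDR12 (-1.75 to -1.5) and BOP1 (-1.496 to -1.12), though the differences were not tested.

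RRS1, which helps to bring the 5S RNP into the large subunit, had 33.3, 34.1 and 35.2 CPM with mebendazole, against 91.3, 89.8 and 90.6 CPM with DMSO (log2 fold change -1.41, SE 0.05, adjusted p = 4.7e-35, edgeR). EBNA1BP2, known in yeast as Ebp2, had 55.2, 51.3 and 51.9 CPM with mebendazole, against 131, 132 and 142 CPM with DMSO (log2 fold change -1.35, SE 0.05, adjusted p = 6.1e-37, edgeR). Groups were separated by more than 50 CPM in both genes. MRTO4, which holds the place of the stalk protein P0, was at -1.27, NOP16 at -1.24, NOC3L at -1.08 and WDR74 at -1.003, all past 2-fold. BRIX1 (-0.97), NIP7 (-0.92), the helicase DDX18 (-0.80), NOC2L (-0.72), PPAN (-0.70) and NOP2, an rRNA methyltransferase (-0.70), fell by less. PPAN was the member with the fewest reads, and its gene overlaps the readthrough gene PPAN-P2RY11, so reads of the 2 cannot be fully told apart.

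Of the paralogues RRP1 and RRP1B, RRP1B was called lower and RRP1 was not called. RRP1B had 59.2, 59.1 and 58.9 CPM with mebendazole, against 93.2, 94.3 and 92.2 CPM with DMSO (log2 fold change -0.66, SE 0.05, adjusted p = 2.4e-20, edgeR). RRP1 had 59.02, 53.1 and 53.98 CPM with mebendazole, against 58.95, 55.2 and 59.6 CPM with DMSO, a log2 fold change of -0.07 (95% interval -0.17 to 0.04, adjusted p = 0.24, edgeR). The RRP1B groups were separate and the RRP1 groups overlapped, and the intervals of the paralogues do not meet, though the difference itself was not tested. GTPBP4, a GTPase known in yeast as Nog1, had 63.1, 58.2 and 63.9 CPM with mebendazole, against 61.1, 61.5 and 68.8 CPM with DMSO, a log2 fold change of -0.05 (95% interval -0.15 to 0.05, adjusted p = 0.39, edgeR). NOL9, a kinase acting on RNA ends in rRNA processing, had 34.1, 33.1 and 32.9 CPM with mebendazole, against 35.6, 30.9 and 30.8 CPM with DMSO and stood at 0.04 (95% interval -0.09 to 0.17, adjusted p = 0.56, edgeR). With library totals RRP1, GTPBP4 and NOL9 were called lower, at -0.31, -0.29 and -0.20. The small falls of the group were in GNL2 (-0.30), a GTP-binding protein of large subunit export, and the helicase DDX56 (-0.16). Summed over the 21 genes the level was 1056 ± 15.1 CPM with mebendazole and 1743 ± 30.3 CPM with DMSO (SD, n = 3 each).

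**Figure D3:**
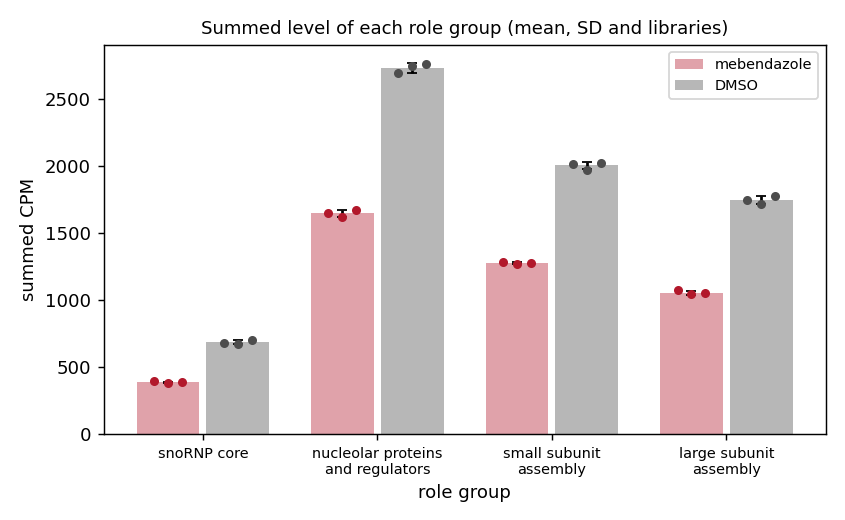
Summed CPM of the genes of each role group (y axis), mebendazole left and DMSO right; bars are means of 3 libraries, whiskers the SD and points the libraries. In each of the 4 groups the mebendazole libraries lie below the DMSO libraries, for example 1274 ± 7.47 CPM with mebendazole and 2002 ± 26.4 CPM with DMSO in small subunit assembly.

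Grouped by protein family in place of role, WD-repeat and helicase members gave different medians. The 8 members listed as WD-repeat proteins were all lower, 4 of them by at least 2-fold, with a median log2 fold change of -0.91. That list leaves out NOL10 (-0.54), which has WD repeats too. Of the 6 DEAD-box RNA helicases 4 were lower, none by 2-fold, with a median of -0.18, and DDX10 and DDX18 made up the larger falls. The 4 GTP-binding members were lower in 3, with a median of -0.44. Of all 57 members 87.7% were lower and 21.1% by at least 2-fold, against 41.7% and 14.8% of all genes tested. Families of this size hold few genes, and the difference between them was not tested.

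Most genes of the same pathway that are not members were lower too, with medians nearer to 0. Other small subunit factors were lower in 30 of 37 and higher in 2, with a median of -0.56. NAT10, the RNA acetyltransferase of the processome, averaged 40.02 ± 1.02 CPM with mebendazole and 157 ± 1.996 CPM with DMSO (SD, n = 3 each, log2 fold change -1.97, SE 0.05, adjusted p = 4.0e-46, edgeR), beside -1.84 for RRP9, the lowest member. WDR3, a WD-repeat processome protein, was at -1.37, and ABT1 had the highest value of the list, 0.37 (0.12 and not called with library totals). Other large subunit factors were lower in 37 of 49 and higher in 7, with a median of -0.49. SPATA5, an ATPase that recycles large subunit assembly factors, was at -1.64 and MYBBP1A at -1.38. SBDS, which acts with EFL1 to release EIF6 from the new subunit in the cytoplasm, averaged 106 ± 4.15 CPM with mebendazole and 58.6 ± 2.48 CPM with DMSO (SD, n = 3 each, log2 fold change 0.86, SE 0.05, adjusted p = 3.2e-26, edgeR). EFL1 (0.35) and EIF6 (0.39) were called higher too, an example of 3 genes of the last cytoplasmic step that was chosen after their values were seen. Other factors of cytoplasmic steps in the list did not share this, with LSG1 at -0.47, SPATA5 at -1.64, NMD3 at 0.06 and RSL24D1 at 0.03. With library totals SBDS and EIF6 remained higher, at 0.61 and 0.14, and EFL1 was not called.

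Of 15 RNA polymerase I genes 8 were lower (53.3%, against 41.7% of all genes tested) and 3 higher, with a median of -0.31. With library totals 13 were lower, where 53.9% of all genes were, and 1 was higher. POLR1G (listed as CD3EAP) was at -1.55, the subunit POLR1B at -1.499 and the largest subunit, POLR1A, at -1.45. RRN3, the initiation factor that recruits the polymerase, averaged 137 ± 3.47 CPM with mebendazole and 90.9 ± 1.01 CPM with DMSO (SD, n = 3 each, log2 fold change 0.60, SE 0.04, adjusted p = 6.5e-21, edgeR), the highest value of the list. Of 15 genes listed for the RNA exosome, which trims rRNA ends, 9 were lower (60%) and 3 higher, with a median of -0.23. That list also holds MTREX, C1D, MPHOSPH6 and XRN2, which are not exosome core subunits. EXOSC5, an exosome core subunit, averaged 3.19 ± 0.1698 CPM with mebendazole and 28.4 ± 0.909 CPM with DMSO (SD, n = 3 each, log2 fold change -3.15, SE 0.11, adjusted p = 6.2e-37, edgeR), EXOSC7 was at -1.47, and MPHOSPH6 was the highest at 0.62.

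Cytosolic ribosomal protein genes, the parts that the factors assemble, were higher in 61 of 77 tested and lower in 2. Their median was 0.18, and 40.6% of all genes were higher. Library totals gave 16 higher, 38 lower and a median of -0.06, where 53.9% of all genes were lower. Relative to the median of all genes, the cytosolic median was 0.21 under both scalings. RPLP1 was the highest at 0.46 and RPS26 the lowest at -0.60, and reads of ribosomal protein genes may be shared with their many pseudogenes. Of 78 mitochondrial ribosomal protein genes 63 were lower and 4 higher, with a median of -0.55, close to that of the other small subunit factors. MRPL24 was at -2.04, MRPL1 at -1.82, and MRPS24 was the highest at 0.54, not called with library totals. Noncoding host genes of snoRNAs were lower in 5 of 15 tested (33.3%) and higher in 6 (40%), with a median of -0.06. With library totals 8 were lower, near the 53.9% of all genes, and 3 higher. The median of -0.06 had no stable sign, since without pair 3 it was 0.03 and among genes averaging 10 CPM or more it was 0.12. SNHG4 was at -1.08, SNHG10 at -0.53 and SNHG5 at 0.58.

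**Figure D4:**
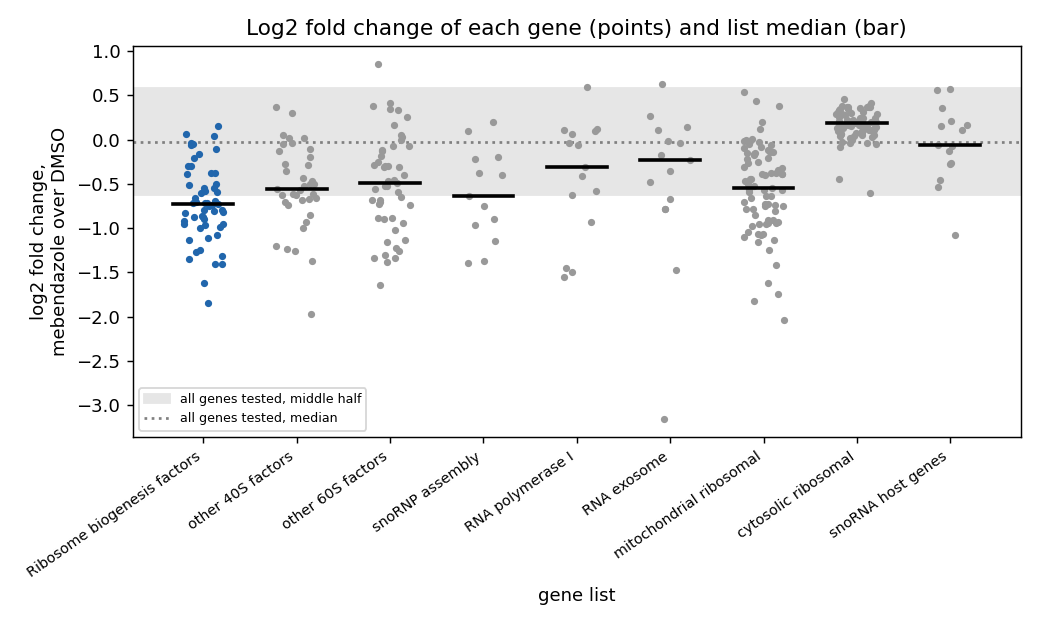
Log2 fold change, mebendazole over DMSO, of every tested gene of each list (points) with the list median (bar); the grey band spans the lower to the upper quartile of all genes tested, -0.62 to 0.58. The ribosome biogenesis factors have the lowest median of the lists shown, -0.73, and the cytosolic ribosomal proteins the highest, 0.18.

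With library totals the median of all genes moved by -0.24 on the log2 scale and that of the members to -0.97, and relative to all genes the member median was -0.70 under both scalings. Then 56 members were called lower and 26 by at least 2-fold, against 53.9% and 20.7% of all genes, so the number of members past a threshold depends on the scaling.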

How the data were processed

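RNA-seq read counts of 6 THP-1 libraries were used. Per the labels' protocols, total RNA was made into libraries with an Illumina TruSeq RNA v2 kit. The deposited table holds unnormalized counts, with a row for each gene symbol and a column for each library. STAR, bedtools, HTSeq and DESeq2 and the build hg19 are named, with no role or version, per the submitters' processing notes; neither annotation nor strand setting is stated in them.

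Counts were filtered with filterByExpr, scaled by TMM and tested in edgeR 4.0.16 (R 4.3.3; glmQLFit, glmQLFTest, two-sided) with the pair as a term, since the labels give pairs. With 2 residual degrees of freedom per gene and 61 prior ones, SEs and p-values rest mostly on spread pooled over genes. DESeq2 1.42.0 was an alternative. Genes named in full were the 4 lowest and the highest log2 fold change of each role group, all members not called lower and the 5 highest levels per kilobase; other lists gave their extremes. PES1, RRP1B and POLR1A fall outside this rule and were added after their values were seen. Exon lengths are from GENCODE and promoters from RefSeq (GRCh38.p14), by symbol. The members and lists were chosen with earlier results of these data known, so counts over them carry no test. One marker gene of the cell type lists is not reported here.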

Additional observations from a re-analysis of the deposited data

How the results depend on the processing

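Of the 57 members, 34 kept sign and call throughout the alternatives that covered them. The test against a 1.5-fold change, which poses a stricter question, alone took the call from 17 members. DESeq2, no filter on low counts and no replicate block each left all 57 the same. With library totals in place of TMM factors the median of all genes moved by -0.24 on the log2 scale. Then 0 members were called higher, 1 was not called and 26 fell by 2-fold or more, and 3 members changed sign, NOL9 (-0.20), UTP3 (-0.19) and RRP12 (-0.088). Medians were then -0.97 for the members, -0.81 and -0.73 for other small and large subunit factors, -0.88 for snoRNP assembly, -0.47 for the exosome, -0.55 for RNA polymerase I, -0.30 for snoRNA hosts, -0.062 for cytosolic and -0.79 for mitochondrial ribosomal proteins and -0.27 for all genes. Genes called higher with library totals were 0 of the other small and 4 of the other large subunit factors and 0 of snoRNP assembly. Also higher were 1 each of the exosome and RNA polymerase I, 3 snoRNA hosts, 16 cytosolic and 2 mitochondrial ribosomal proteins. Of all 13591 genes tested, 11500 were called with library totals, 7319 of them lower and the others higher. Called lower were 13 of 15 RNA polymerase I genes, 8 of 15 snoRNA hosts and 38 of 77 cytosolic ribosomal proteins, where 53.9% of all genes were.

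DESeq2 called 50 members lower, 0 snoRNP assembly genes and 1 RNA polymerase I gene higher and 3 snoRNA hosts lower. Over all genes tested it called 9734, 4751 of them lower (35% of those tested), with a median of -0.0048. With no filter on low counts 1 snoRNP assembly gene and 1 RNA polymerase I gene were higher, and the all-gene median was -0.0017. That fit called 11760 genes, 5958 of them lower (32.1% of those tested). Testing just the genes that averaged 10 CPM or more, 1 gene of each of these lists was higher, 2 snoRNA hosts and 4 cytosolic ribosomal proteins were lower, and medians were -0.77 for the members, -0.59 for other small subunit factors, 0.12 for snoRNA hosts (a change of sign) and -0.015 for all genes. DDX47 was then called lower, at -0.13, and 8258 genes were called, 4177 of them lower (44% of those tested).

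The test against a 1.5-fold change asks for a larger change and called 5774 genes, 2878 of them lower. It left 34 members lower, 0 higher and 23 not called. Lower and higher were 13 and 0 other small and 19 and 1 other large subunit factors, 6 and 0 snoRNP assembly genes, 4 and 0 exosome genes, 4 and 0 RNA polymerase I genes, 1 and 0 snoRNA hosts, 0 and 0 cytosolic and 31 and 0 mitochondrial ribosomal proteins.

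Without 1 pair, 50 members were lower each time, 0 to 1 higher and 12 to 13 lower by 2-fold or more. Of all genes tested 39 to 39.9% were then lower, and 14.9% lower by 2-fold or more. Called were 2 to 7 cytosolic ribosomal proteins lower, and higher 1 snoRNP assembly gene each time, 1 to 2 RNA polymerase I genes and 1 to 3 exosome genes, with an all-gene median of -0.023 to -0.013. The median of the snoRNA hosts was -0.054, -0.024 and 0.03 without pair 1, 2 and 3, so it changed sign without pair 3. RRP12 lost its call without pair 2, and UTP3 lay between -0.011 (without pair 1) and 0.11; the cause was not tested. The fit with no replicate block gave 50 members lower, 1 higher and 12 lower by 2-fold or more, and no member changed its call. It called 11118 genes, with 41.5% of all genes tested lower and 14.8% lower by 2-fold or more. In that fit 1 RNA polymerase I gene was higher. Deviations from the group means correlated at 0.00094, 0.08 and 0.023 within pairs 1, 2 and 3, and 3 of 6 libraries correlated best with their own number.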
